A study of Mus musculus with 9 samples.

Results

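The 10 genes described here encode the subunits of the transcription factor NF-kappaB and proteins that restrain or modify it. They are the subunit genes Nfkb1, Nfkb2, Rel, Rela and Relb, the IkappaB inhibitor genes Nfkbia, Nfkbib and Nfkbie, and the feedback genes Tnfaip3 and Bcl3. They were found by their symbols among the 52550 genes of a count table of mouse ear epidermis, each symbol occurred once, and all 10 passed the filter on low counts. The question was how their transcripts compared between control skin, skin treated with imiquimod, and skin treated with imiquimod in mice that received the herbal decoction Xiao-Yin-Fang (XYF).

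RNA was sequenced from intact epidermal ear sheets of wild type C57BL/6 mice (C57BL/6J in the study's methods) aged 8 weeks, in 3 groups of 3 libraries. In VAS + H2O, Vaseline was put on the ears for 5 days and the mice were gavaged with ddH2O for 10 days. In IMQ + H2O, imiquimod, an agonist of Toll-like receptor 7, replaced Vaseline and the gavage was again ddH2O. In IMQ + XYF, imiquimod was applied in the same way and the gavage of 200 µl held XYF at 23.3 mg/g. VAS + H2O and IMQ + H2O thus share the water gavage, and there was no group with Vaseline and XYF. The methods describe male mice and ear sheets taken from 2 mice without stating whether these were pooled in each library, so p-values measure the spread between libraries, which may be partly technical.

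NF-kappaB is a family of dimers. Rela, Rel and Relb encode subunits with a domain that activates transcription, whereas Nfkb1 and Nfkb2 encode precursors, p105 and p100, that are processed to the DNA-binding subunits p50 and p52. IkappaB proteins hold the dimers in the cytoplasm until the IkappaB kinase complex marks them for degradation, and several of the inhibitors are themselves transcribed by NF-kappaB, which closes a feedback loop. In keratinocytes the pathway is known to respond to Toll-like receptor ligands, TNF, interleukin-1 and interleukin-17.

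The genes lie at chr3:135584655-135691547 (Nfkb1), chr19:46304320-46312385 (Nfkb2), chr11:23736847-23770970 (Rel), chr19:5637483-5648130 (Rela) and chr7:19606217-19629438 (Relb) of the mouse genome GRCm38. The inhibitor genes lie at chr12:55489410-55492647 (Nfkbia), chr7:28758251-28767512 (Nfkbib) and chr17:45555703-45563169 (Nfkbie), with Tnfaip3 at chr10:19000910-19015657 and Bcl3 at chr7:19808462-19822770. Exons of 3 members overlap genes on the opposite strand, and the strand setting of the counting is not given in the sources used here. The overlap covers 6.51% of the exon length of Bcl3 (antisense gene Gm16175), 14.5% (Ccer2) and 1.94% (Sirt2) of that of Nfkbib, and 11.6% (AC114539.1) and 6.52% (Psd) of that of Nfkb2, so counts of these 3 genes may include some reads of their neighbours.

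To show which of these genes carry the recognition sequence of their own factor close to the start site, RefSeq promoter windows of GRCm38.p6, from 250 bases before to 50 bases after each start, were searched on both strands for the 10-base NF-kappaB consensus (the kappaB motif), with overlapping matches merged. Windows were at hand for 8 of the 10 members, all but Nfkb1 and Relb. At least 1 match was found in 6 of these 8 members (75.0%), compared with 9.55% of 27025 genes with a window. Rela and Nfkbib had no match in these windows. A match is a stretch of letters and not a measured binding site. The following stretches are printed 5′ to 3′ on the strand of the gene, with the match in capitals, and are shown for each of the 6 members with a match, with 2 of the 4 matches of Nfkb2.
Bcl3, chr7:19822734-19822763, minus strand: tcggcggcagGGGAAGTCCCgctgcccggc
Nfkb2, chr19:46304689-46304718, plus strand: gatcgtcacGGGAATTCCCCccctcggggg
Nfkb2, chr19:46304716-46304745, plus strand: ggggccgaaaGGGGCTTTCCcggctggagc
Nfkbia, chr12:55492648-55492711, minus strand: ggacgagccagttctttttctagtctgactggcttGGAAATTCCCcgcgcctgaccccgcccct
Tnfaip3, chr10:19015491-19015547, minus strand: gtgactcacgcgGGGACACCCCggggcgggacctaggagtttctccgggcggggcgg
Tnfaip3, chr10:19015411-19015457, minus strand: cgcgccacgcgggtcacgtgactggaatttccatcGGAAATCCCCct
Rel, chr11:23771016-23771095, minus strand: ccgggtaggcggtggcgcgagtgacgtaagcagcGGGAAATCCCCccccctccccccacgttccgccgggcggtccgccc
Nfkbie, chr17:45555559-45555638, plus strand: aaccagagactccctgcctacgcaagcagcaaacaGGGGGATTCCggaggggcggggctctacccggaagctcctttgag
The match of Bcl3 lies inside the annotated exon and begins at base 3, counted from 1 at the start site. The Nfkb2 matches shown start 39 and 11 bases before the start site in 1 of its RefSeq windows, and both overlap an annotated exon of the gene. That of Nfkbia starts 29 bases before its start site. Tnfaip3 carried matches 125 and 12 bases upstream, Rel 92 bases upstream and Nfkbie 106 bases upstream.

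The libraries held 30298275 to 64771160 counts on genes, TMM factors were 0.956 to 1.06, and the floor of 3 counts corresponded to 0.0463 to 0.099 CPM (counts scaled to a common library size), a floor that covers counting error only. The epidermal label was checked against 10 keratinocyte genes, which were detected in every library and summed to 40000 to 63700 CPM. Genes of 2 other tissues of the ear moved with the groups. Of 7 dermal fibroblast genes, 2 fell in IMQ + H2O against VAS + H2O, and their sum was 73 to 646 CPM in VAS + H2O (646 in replicate 2 alone), 48 to 53.3 in IMQ + H2O and 73.5 to 210 in IMQ + XYF. Of 5 cartilage genes tested out of 8 listed, all 5 fell, with sums of 165 to 384, 32.2 to 75 and 116 to 176 CPM, while Matn1 was at 0 in every library. The part of these cells in the results below was not tested.

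Imiquimod was accompanied by higher transcript levels of 7 of the 10 members. In IMQ + H2O against VAS + H2O, Nfkb1, Nfkb2, Rela and Relb rose among the subunits, Nfkbib among the IkappaB genes, and both Tnfaip3 and Bcl3 among the feedback genes, at an adjusted p of at most 0.05 (edgeR quasi-likelihood test over 18009 genes). No member fell. The same threshold called 12.7% of all genes tested as higher and 9.41% as lower. The log2 fold changes of the 10 members had a median of 0.56 and ranged from 0.06 to 3.76, beside a median of -0.029 over all genes tested. The groups did not overlap, with every imiquimod library higher, in 8 of the 10 members, against 23.4% of all genes. Only Bcl3 among the members was also 2-fold or more apart, the study's limit for a differentially expressed gene (DEG), which 3.64% of genes met as higher. The count of 7 fell to 3 without VAS + H2O replicate 2, to 4 without VAS + H2O replicate 1 or any 1 of the IMQ + H2O libraries, and to 6 without VAS + H2O replicate 3. Without VAS + H2O replicate 2, the library with the high fibroblast sum, the log2 fold changes of the 4 members whose call was lost were 0.25 (Rela), 0.45 (Relb), 0.39 (Nfkbib) and 1.01 (Tnfaip3), against 0.24, 0.55, 0.4 and 0.93 with all 6 libraries, and 1446 genes passed in all, against 3986. In a bulk sample, more cells of a type and more RNA per cell cannot be told apart.

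**Figure D1:**
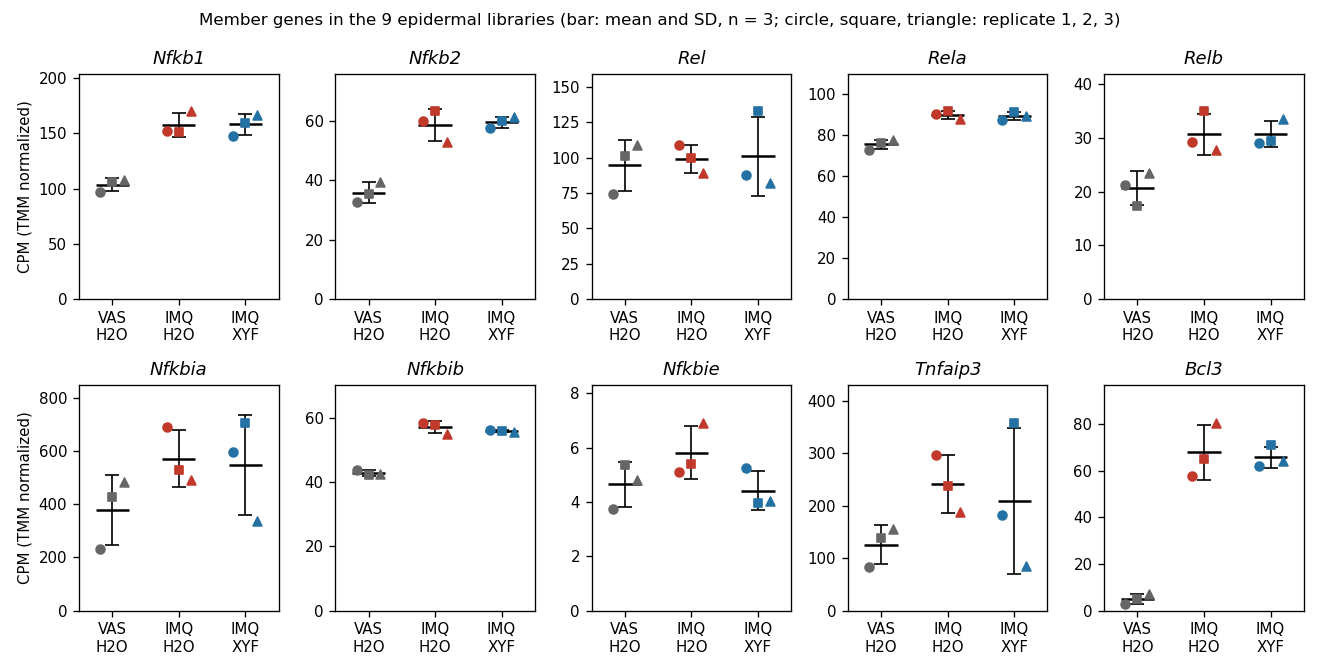
CPM of the 10 members in the 9 libraries, 1 panel per gene with its own axis from 0, in VAS + H2O (grey), IMQ + H2O (red) and IMQ + XYF (blue). The bars are mean and SD of 3 libraries, and the symbols mark the replicate numbers. Bcl3 lies at 2.81 to 7.17 CPM in VAS + H2O and at 57.9 to 80.7 CPM in IMQ + H2O, while Rel overlaps in all groups.

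Nfkb1, whose product p50 binds DNA in most canonical dimers, measured 96.8, 106 and 108 CPM in the VAS + H2O libraries and 152, 151 and 170 CPM in the IMQ + H2O libraries. Every imiquimod library was above every control library. The log2 fold change was 0.59 (SE 0.087, 1.51-fold, adjusted p = 0.00947). Nfkb2, the precursor of the non-canonical arm, measured 32.8, 35.3 and 39.6 CPM against 60, 63.3 and 52.8 CPM, again without overlap, and rose by 0.69 on the log2 scale (SE 0.11, adjusted p = 0.0107). Both calls held in each fit with a library left out and in every other setting tried.

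Rela, the main activating subunit of the canonical arm, had the smallest change among the subunits that passed. It measured 72.8, 75.8 and 77.3 CPM against 90.3, 91.5 and 87.6 CPM, so that the groups were apart although the means of 75.3 ± 2.32 and 89.8 ± 2 CPM (SD, n = 3) were close. The log2 fold change was 0.24 (SE 0.068, 1.18-fold, adjusted p = 0.0468), and the call was lost whenever any 1 of the 6 libraries was left out, with adjusted p from 0.0632 to 0.144. Relb, the partner of p52 in the non-canonical arm, measured 21.3, 17.3 and 23.5 CPM against 29.3, 35 and 27.7 CPM, without overlap. It rose by 0.55 on the log2 scale (SE 0.15, adjusted p = 0.0378), and 1 of the 6 fits with a library left out kept the call.

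Rel, the gene of c-Rel, a subunit best known in lymphocytes, did not pass the test. It measured 74.3, 101 and 109 CPM in VAS + H2O and 109, 100 and 89.1 CPM in IMQ + H2O, and the groups overlapped almost fully. The log2 fold change was 0.06 with a 95% interval from -0.31 to 0.42 (adjusted p = 0.824).

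Among the inhibitors, Nfkbib rose with very little spread. This gene encodes IkappaBbeta, and it measured 43.7, 42.1 and 42.6 CPM against 58.5, 57.6 and 54.9 CPM. The log2 fold change was 0.4 (SE 0.073, 1.32-fold, adjusted p = 0.0147). Nfkbia, which encodes IkappaBalpha and is a rapid target of NF-kappaB, measured 231, 425 and 481 CPM in VAS + H2O and 691, 528 and 489 CPM in IMQ + H2O. The lowest imiquimod library was just above the highest control library. Its log2 fold change of 0.57 had a 95% interval from -0.08 to 1.23 and did not pass (adjusted p = 0.178). Nfkbie, the gene of IkappaBepsilon, had the lowest mean CPM of the 10 members in both groups, although its VAS + H2O range overlapped that of Bcl3. Nfkbie measured 3.74, 5.37 and 4.82 CPM against 5.11, 5.41 and 6.92 CPM. Its groups overlapped and its log2 fold change of 0.31 did not pass (95% interval -0.19 to 0.81, adjusted p = 0.322).

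Tnfaip3 encodes A20, a ubiquitin-editing enzyme that shuts off signalling upstream of the IkappaB kinase. It measured 83.9, 138 and 155 CPM in VAS + H2O and 298, 238 and 189 CPM in IMQ + H2O. The groups were apart, but each spanned a wide range. The log2 fold change was 0.93 (SE 0.26, 1.9-fold, adjusted p = 0.0439). The call held in 1 of the 6 fits with a library left out and was lost when all 9 libraries entered 1 fit (adjusted p = 0.155).

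Bcl3 showed the largest change of the members. It encodes an atypical nuclear IkappaB protein that binds dimers of p50 or p52 on DNA and can turn them into activators. The counts were 133, 164 and 250 in VAS + H2O and 1676, 2500 and 3486 in IMQ + H2O, which correspond to 2.81, 4.98 and 7.17 CPM and to 57.9, 65 and 80.7 CPM. The lowest imiquimod library lay far above the highest control library. Bcl3 rose 13.6-fold (95% interval 7.74 to 23.8, log2 fold change 3.76, SE 0.34, adjusted p = 0.00379), and it ranked at position 58 by p and at position 91 by fold change toward higher values among the 18009 genes. Leaving out single libraries gave log2 fold changes of 3.46 to 4.15, all of which passed.

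Neutrophil transcripts moved with imiquimod in some libraries and are given beside Bcl3 for that reason. Of 8 neutrophil genes, 1 was tested and rose, the chemokine receptor gene Cxcr2, with 10.6 to 12.6 CPM in VAS + H2O and 49.2 to 80.7 CPM in IMQ + H2O. All 8 genes together summed to 11 to 12.7 CPM in VAS + H2O, 49.4 to 144 in IMQ + H2O and 62.5 to 90.4 in IMQ + XYF. The other 7 genes summed to 0.233, 0.334 and 0.086 CPM in VAS + H2O, 0.173, 1.85 and 63.6 CPM in IMQ + H2O and 34.3, 1.63 and 9.46 CPM in IMQ + XYF. Ly6g, which defines mouse neutrophils, had 22 counts in IMQ + H2O replicate 3, 16 in IMQ + XYF replicate 1, 3 in IMQ + XYF replicate 3 and 0 in the other 6 libraries. In IMQ + H2O replicate 1 the 7-gene sum was within the control range and Bcl3 stood at 57.9 CPM. Cxcr2, which that sum leaves out, stood at 49.2 CPM there, above its control range of 10.6 to 12.6 CPM. Within IMQ + H2O, Bcl3 (57.9, 65 and 80.7 CPM) ranked the libraries in the same order as the 7-gene sum, and both were highest in replicate 3. Within IMQ + XYF the order was the opposite. The part of neutrophils in the Bcl3 values was not tested.

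Markers of lymphocytes and macrophages gave a mixed picture beside the members. The sum of 8 T cell genes was 99.8 to 108 CPM in VAS + H2O, 151 to 173 in IMQ + H2O and 150 to 199 in IMQ + XYF. Of the 7 tested in IMQ + H2O against VAS + H2O, Thy1 rose while Cd3d, Cd3e and Cd3g fell, and Cd8a had 0 counts in 8 of the 9 libraries. The 8 macrophage and monocyte genes summed to 40.3 to 49.8, 41.2 to 82.3 and 38.5 to 70.5 CPM, and Cd68 and Ly6c2 rose among the 7 tested. Ly6c2 was at 0 CPM in VAS + H2O and at 1.52 to 2.71 CPM in IMQ + H2O. It passed the low-count filter only through the imiquimod libraries, so its rise is not read as a result. The 7 Langerhans and dendritic cell genes summed to between 551 and 709 CPM in all libraries, and none of them passed. The part of these cells in the members' values was not tested.

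XYF was not accompanied by a detectable change of any member. In IMQ + XYF against IMQ + H2O, 0 of the 10 members passed in edgeR, 0 had an unadjusted p under 0.05, and DESeq2 called 0. Over all 17793 genes tested in edgeR, 5 passed (0.0281%) and 966 had an unadjusted p under 0.05. In DESeq2, 165 of 17037 genes passed. The groups overlapped in all 10 members, and 10.7% of all genes had no overlap in either direction. Among 10 members, 0 without overlap and 0 with an unadjusted p under 0.05 lie near these shares over all genes. These counts do not set the members apart. The median log2 fold change of the members was -0.01, with a range from -0.39 to 0.03.

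**Figure D2:**
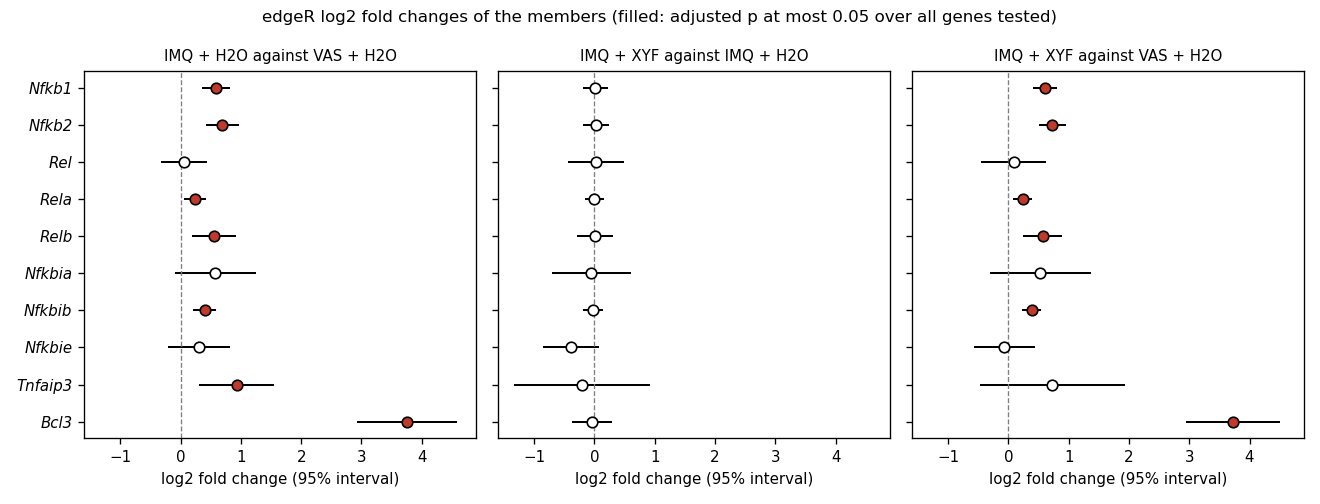
Log2 fold changes of the members (horizontal axis, with 95% intervals) in the 3 comparisons, from edgeR, with filled points for adjusted p of at most 0.05. Of the 10 points, 7 are filled on the left, 0 in the middle and 6 on the right, and Bcl3 stands at 3.76 and 3.73 in the outer panels.

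The intervals show how large a difference these libraries could have missed. Bcl3 measured 62, 71 and 64.2 CPM in IMQ + XYF, inside the range of IMQ + H2O, with a ratio of 0.971 (95% interval 0.783 to 1.21). Nfkb1 measured 148, 159 and 167 CPM, with a ratio of 1.01 (0.885 to 1.15). Rela measured 87.2, 90.9 and 89.2 CPM, with a ratio of 0.997 (0.905 to 1.1), the narrowest interval among the members.

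Nfkb2 at 57.5, 60 and 61.2 CPM, Nfkbib at 56.2, 56 and 55.6 CPM and Relb at 29.1, 29.5 and 33.5 CPM also lay within the IMQ + H2O range. Their log2 fold changes were 0.03 (-0.18 to 0.23), -0.02 (-0.17 to 0.13) and 0.01 (-0.27 to 0.29). Nfkbie measured 5.23, 3.95 and 4.05 CPM and had the lowest value of this comparison, a log2 fold change of -0.39 (-0.84 to 0.06, adjusted p = 0.979).

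For Tnfaip3, Nfkbia and Rel the XYF libraries disagreed with each other. Tnfaip3 measured 183, 359 and 85.1 CPM, and its log2 fold change of -0.21 had an interval from -1.32 to 0.91, and it was 0.17 without IMQ + XYF replicate 3 and -0.84 without IMQ + XYF replicate 2. Nfkbia measured 596, 706 and 338 CPM, with a log2 fold change of -0.05 (-0.69 to 0.59), and 0.2 and -0.28 without the same libraries. Rel measured 88.1, 133 and 82.1 CPM, with 0.03 (-0.42 to 0.47), and 0.16 and -0.22 without them. Replicate 2 was the highest and replicate 3 the lowest XYF library for all of them, and a moderate effect of XYF on these genes was not detectable at this spread.

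Compared with VAS + H2O, the IMQ + XYF group showed 6 of the 7 members that rose with imiquimod alone. These comparisons share their VAS + H2O libraries, and the values are given side by side for that reason only. Higher calls made up 16.7% and lower calls 12.0% of the 17954 genes tested, 4.58% were higher DEGs, and 25.1% had no overlap with higher values, compared with 6 members that passed as higher, 0 that passed as lower, 1 DEG (Bcl3) and 6 members without overlap. The log2 fold changes were 0.61 for Nfkb1 (adjusted p = 0.00238), 0.73 for Nfkb2 (0.00224), 0.24 for Rela (0.0221), 0.57 for Relb (0.0193) and 0.39 for Nfkbib (0.00511). Bcl3 rose 13.3-fold (95% interval 7.82 to 22.5, adjusted p = 0.000951). Tnfaip3 was the member that passed in the first comparison and not here, with a log2 fold change of 0.73 and an SE of 0.5 (adjusted p = 0.31). The difference between the imiquimod groups for Tnfaip3 is the XYF comparison above, which did not pass. Nfkbia (0.53, adjusted p = 0.29), Rel (0.09, 0.78) and Nfkbie (-0.07, 0.824) did not pass.

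To compare levels between genes, CPM was divided by the length in kb of the principal transcript. Nfkbia was the most abundant member in every group, with 240 ± 83.1 CPM per kb in VAS + H2O (SD, n = 3). Tnfaip3 (28.4), Rela (27.7), Nfkb1 (25.2) and Nfkbib (20.8) followed, then Rel (12.7), Nfkb2 (11.4) and Relb (9.38), and Bcl3 (2.7) and Nfkbie (1.91) were the lowest. In VAS + H2O, the ranges of the libraries overlapped between the neighbours Tnfaip3 and Rela, Rel and Nfkb2, Nfkb2 and Relb, and Bcl3 and Nfkbie. The range of Tnfaip3 (19 to 35.1) also held those of Nfkb1 and Nfkbib, and that of Rel overlapped that of Relb.

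Bcl3 moved from position 9 to position 4 in this order. In IMQ + H2O its 36.7 CPM per kb lay between Nfkb1 (38.3) and Rela (33.1) and overlapped both, below Nfkbia (361) and Tnfaip3 (54.7), and in IMQ + XYF it measured 35.5 CPM per kb, where its range again overlapped that of Nfkb1. The ratio of Bcl3 to Nfkb1 per kb was 0.0647, 0.104 and 0.148 in VAS + H2O, 0.848, 0.96 and 1.06 in IMQ + H2O, and 0.929, 0.993 and 0.856 in IMQ + XYF. With the length of all annotated exons, a choice added after the values were seen, Bcl3 again moved from position 9 to 4. Nfkb1 then stood at position 6 in VAS + H2O and 7 in the other groups, because its annotated exons span 12061 bases and its principal transcript 4117. With these lengths Bcl3 (27.4 CPM per kb) lay above Nfkb1 (13.1) in IMQ + H2O without overlap, so their near equal level depends on the length used. Tnfaip3 stood at position 4 in VAS + H2O with these lengths.

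**Figure D3:**
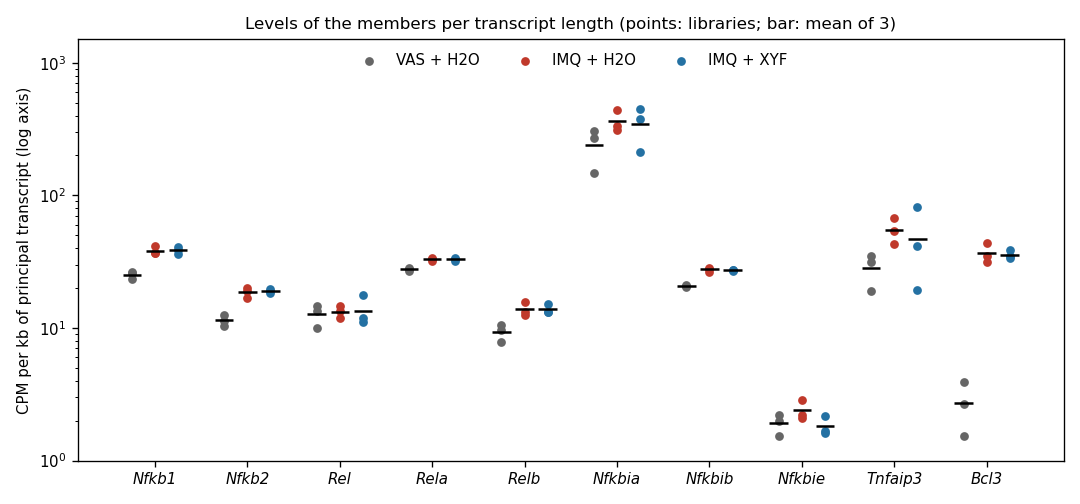
Levels of the members in CPM per kb of the principal transcript on a log axis, with 1 point per library and a bar at the mean of 3. Bcl3 lies at 2.7 in VAS + H2O and at 36.7 and 35.5 in the imiquimod groups, next to Nfkb1 and Rela, while Nfkbia is the highest member throughout.

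The makeup of the 5 subunit transcripts, as shares of their summed CPM per kb, shifted with the groups. Nfkb1 took 29.2% (range 28.3% to 29.9%) in VAS + H2O and 32.7% (30.6% to 36%) in IMQ + H2O, and Nfkb2 took 13.2% (13% to 13.6%) and 15.9% (14.6% to 16.8%). Rela, which rose less than these, took 32.1% (30.8% to 33.3%) and 28.2% (28.1% to 28.4%). The shares of Rel, 14.6% (12.4% to 15.8%) and 11.4% (10.4% to 12.5%), and of Relb, 10.9% (9.09% to 12%) and 11.8% (10.9% to 13.2%), overlapped between the groups. Those of Nfkb1, Nfkb2 and Rela did not, although 3 against 3 libraries cannot give a two-sided exact permutation p under 0.1. In IMQ + XYF the mean shares were 32.7% for Nfkb1, 16.1% for Nfkb2, 27.9% for Rela, 11.5% for Rel and 11.8% for Relb. These shares depend on the transcript lengths used.

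The members differed widely in how much libraries of 1 group varied. The coefficient of variation, averaged over the 3 groups, was 1.9% for Nfkbib, 2.47% for Rela, 6.17% for Nfkb1 and 7.3% for Nfkb2, and 11.9% for Relb, compared with a median of 14.7% over 18492 genes. It was 16.9% for Nfkbie, 18.9% for Rel, 22.7% for Bcl3, 29.3% for Nfkbia and 39.5% for Tnfaip3.

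The spread of Nfkbia, Tnfaip3 and Rel went with that of immediate early genes. A list of 10 such genes (Fos, Fosb, Jun, Junb, Egr1, Egr2, Atf3, Ier2, Dusp1 and Zfp36), which cells transcribe within minutes of a stimulus, was chosen after the values were seen. Its sum was 8780, 13200 and 16500 CPM in VAS + H2O, 11500, 9570 and 7910 CPM in IMQ + H2O and 9530, 10100 and 5580 CPM in IMQ + XYF. Nfkbia, Tnfaip3 and Rel ranked the libraries in the same order as this sum in all 3 groups, and the other 7 members did so in 0 or 1 group. Of 18482 genes outside the early gene list, 145 (0.785%) did so in all 3 groups, these 3 members included. As the list was chosen after the values were seen, this share only describes the data. None of the 10 early genes passed in any comparison, with 2 of them at an unadjusted p under 0.05 in IMQ + H2O against VAS + H2O, 0 in IMQ + XYF against IMQ + H2O and 2 in IMQ + XYF against VAS + H2O. Their part in the results of these 3 members was not tested.

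**Figure D4:**
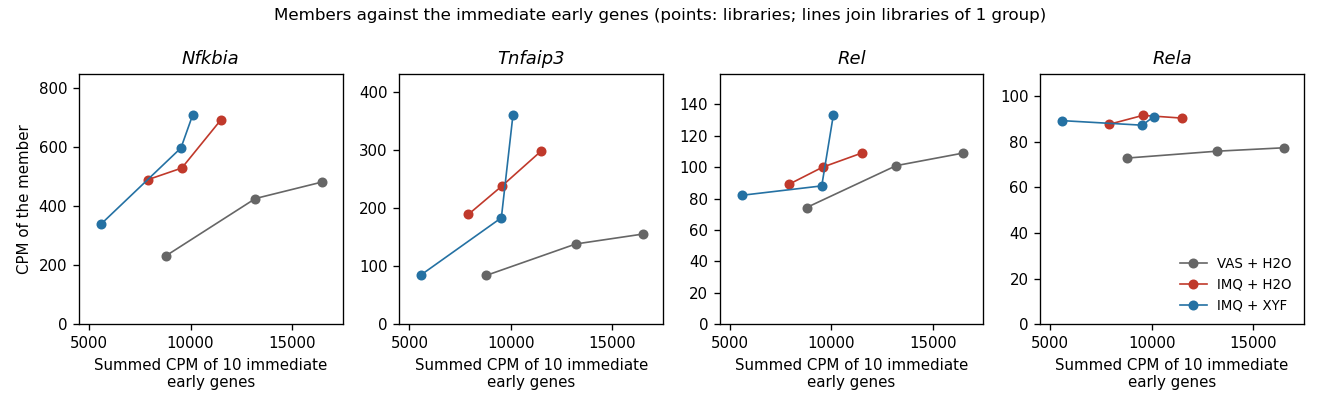
CPM of Nfkbia, Tnfaip3, Rel and Rela (vertical axes from 0) against the summed CPM of 10 immediate early genes, with 1 point per library and lines joining libraries of 1 group. Nfkbia, Tnfaip3 and Rel climb with the sum inside every group, whereas Rela stays between 72.8 and 91.5 CPM.

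Other genes of the pathway were followed by list, and the counts of each list stand beside the 12.7% of all genes tested that were higher and the 9.41% that were lower. Of the 3 atypical IkappaB genes outside the members, 1 rose in IMQ + H2O against VAS + H2O. This was Nfkbid, with a log2 fold change of 0.92 (SE 0.22, adjusted p = 0.0295), while Nfkbiz, a nuclear cofactor of interleukin-17 responses in keratinocytes, measured 259 ± 98.9 and 455 ± 64.7 CPM (SD, n = 3) and did not pass (0.8, adjusted p = 0.0934 in edgeR, 0.0138 in DESeq2). Of 11 kinases of the IkappaB kinase complex and upstream, 1 rose, Tbk1 (0.49, adjusted p = 0.0144), a share near that over all genes, and the median of the list was -0.02. Map3k14, the kinase that starts the non-canonical arm, had a log2 fold change of 0.51 (adjusted p = 0.0699) and Ikbke one of 0.33 (adjusted p = 0.0859).

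Of 20 adaptors and ubiquitin ligases, 4 rose and 2 fell, the latter near the share over all genes, with a median of 0.08. Myd88, the adaptor that Toll-like receptor 7 and interleukin-1 receptors use, rose 2.01-fold (95% interval 1.64 to 2.46, adjusted p = 0.00709). Traf3, a brake on the non-canonical arm, rose by 0.81 (SE 0.16, adjusted p = 0.0165), Birc3 by 0.44 (SE 0.088, adjusted p = 0.0185) and Irak4, named after its value was seen, by 0.45. Birc2 fell by 0.48 (SE 0.087, adjusted p = 0.0146), and Traf5, named after its value was seen, was the other that fell. None of the 6 genes of the CARD-BCL10-MALT1 scaffold passed (median -0.14), and Card14, a keratinocyte scaffold, had a log2 fold change of 0.03 (adjusted p = 0.933).

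Of 14 other negative regulators, 4 rose and 0 fell, with a median of 0.12. Zc3h12a, which encodes the RNase Regnase-1, rose from 81.8 ± 27.1 to 272 ± 24.4 CPM (log2 fold change 1.72, SE 0.25, adjusted p = 0.00958). Irak3 (0.77, adjusted p = 0.0163), N4bp1 (0.44, 0.022) and Tnip1, a partner of A20 (0.46, 0.0424), also rose. Tnip3 (1.72, adjusted p = 0.0634) and the deubiquitinase gene Cyld (-0.44, 0.17) did not pass. Of 17 TNF family receptors and ligands, 14 were tested, 3 rose and 1 fell, with a median of 0.39. The 3 were the lymphotoxin beta receptor gene Ltbr (0.74, adjusted p = 0.00881), Tnfrsf1a (0.5, 0.01) and Tnfrsf12a (0.69, 0.0178), and Tnfrsf11a, named after its value was seen, was the 1 that fell.

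Genes known as NF-kappaB targets formed the last of these lists. Of 30 listed, 25 were tested, 10 rose and 0 fell, 8 of them as DEGs. The median of the 25 was 1.64, with 18 log2 fold changes above 0 and 7 below, from -1.67 to 8.58. Some passed the low-count filter only through the imiquimod libraries, such as Saa3 (0 CPM in VAS + H2O, at least 0.587 in IMQ + H2O) and Csf3. Such genes are high by selection, so the median, the counts and the upper end of the range are not read as results. Ccl20, which encodes a chemokine for CCR6-bearing cells, rose 21.9-fold (95% interval 12.8 to 37.3), the neutrophil chemokine gene Cxcl1 13.6-fold (7.93 to 23.3) and Lcn2, an antimicrobial siderophore-binding protein gene, 40.7-fold (18.9 to 87.8), with adjusted p of 0.00214, 0.00355 and 0.00355. In IMQ + XYF against IMQ + H2O, 0 genes passed in edgeR in any of these 7 lists, and DESeq2 called 1, Traf3 (log2 fold change -0.44 in edgeR, adjusted p = 0.46 in edgeR and 0.0494 in DESeq2). Over all genes, DESeq2 called 165 of 17037. The list medians ran from -0.21 to 0.02.

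**Figure D5:**
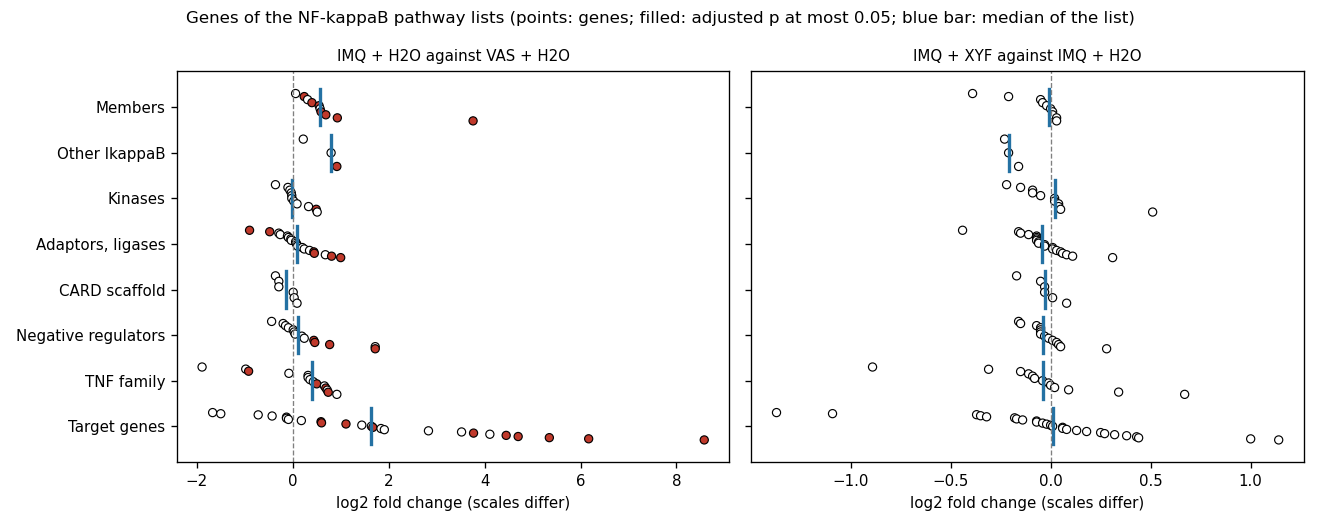
Log2 fold changes (horizontal axes, with different scales) of the members and of 7 further lists of NF-kappaB pathway genes in IMQ + H2O against VAS + H2O (left) and IMQ + XYF against IMQ + H2O (right). Each point is a gene, filled at an adjusted p of at most 0.05. The blue bars are medians of the genes that passed the low-count filter, which are 0.56 for the members and 1.64 for the target genes on the left. Some target genes passed that filter only through the imiquimod libraries, so their median is not read as a result. No point on the right is filled.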

How the data were processed

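Epidermal ear sheets were sequenced in 9 libraries of 3 groups, which were taken from the labels. Per the study's methods, the authors made TruSeq libraries, aligned reads with STAR (version 2.5 in the submitters' processing notes) to GRCm38 with the Ensembl annotation, assembled transcripts with StringTie and tested genes with DESeq2. The processing notes also name FastQC, Cuffnorm and DESeq 1.22.1. The authors deposited whole-number read counts per gene without normalization, with 1 column per library. The tool and strand setting of the counting are not given in the sources used here, and reads counted without strand would add antisense transcripts.

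The counts were analysed in R 4.3.3, with edgeR 4.0.16 as the main tool, DESeq2 1.42.0 as its alternative, and limma 3.58.1 loaded by edgeR. A fit held the 6 libraries of 1 pair of groups and all genes that passed filterByExpr (minimum count 10, total 15), with TMM normalization and the quasi-likelihood test. Benjamini-Hochberg adjustment covered every gene tested. SEs and 95% intervals come from the test statistic. CPM used TMM factors over 18492 genes and 9 libraries. Lengths come from GENCODE M21. Markers of other cell types were checked by the summed CPM of lists.

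The members and gene lists were chosen with earlier results of these data known. Named genes are all members, the 3 genes of each pathway list with the smallest p in IMQ + H2O against VAS + H2O, and 8 others listed with that rule. Others are marked. On data simulated from the libraries of IMQ + H2O against VAS + H2O with 200 of 18009 genes changed, edgeR recovered 43% at 2-fold (5 false calls) and 74.5% at 4-fold (14 false calls). It made 0 calls with none changed. DESeq2 recovered 65.5% and 84.5%, with 72 and 77 false calls, and made 20 calls with none changed. Alternatives were DESeq2, RLE size factors, no filter, at least 10 counts per library, 1 fit of 9 libraries, a replicate block, and each library left out. Dermal libraries were not analysed here.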

Additional observations from a re-analysis of the deposited data

How the results depend on the processing

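The count of members that passed in IMQ + H2O against VAS + H2O was 7 with DESeq2, RLE size factors and the minimum of 10 counts, 6 without a filter (Rela lost) and 6 with 9 libraries in 1 fit (Tnfaip3 lost). Leaving out single libraries gave 3 to 6, with 3 without VAS + H2O replicate 2 and 4 without IMQ + H2O replicate 3, and fits on 5 libraries called fewer genes in all (1446 to 3077, against 3986). The DEG count was 1 to 2 in these fits, since Tnfaip3 joined Bcl3 without VAS + H2O replicate 3. Nfkb1, Nfkb2 and Bcl3 passed in this comparison under every alternative run. In IMQ + XYF against IMQ + H2O, 0 members passed under every alternative. In IMQ + XYF against VAS + H2O, 4 to 6 passed.

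With the replicate number as a block, 4 members passed in IMQ + H2O against VAS + H2O (Rela, Relb and Tnfaip3 lost) and 5 in IMQ + XYF against VAS + H2O (Rela lost). The deviations of same-numbered libraries correlated at -0.168 to 0.136 over 9 pairs, with 3 over 0.1, so the numbers were not taken to pair the libraries.

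Leaving out single libraries turned the sign of log2 fold changes that did not pass. Their ranges were -0.1 to 0.2 for Rel in IMQ + H2O against VAS + H2O, and -0.13 to 0.23 for Rel and -0.2 to 0.05 for Nfkbie in IMQ + XYF against VAS + H2O. In IMQ + XYF against IMQ + H2O they were -0.03 to 0.06 (Nfkb1), -0.05 to 0.09 (Nfkb2), -0.22 to 0.16 (Rel), -0.03 to 0.01 (Rela), -0.07 to 0.11 (Relb), -0.28 to 0.2 (Nfkbia), -0.84 to 0.17 (Tnfaip3) and -0.15 to 0.1 (Bcl3). With 3 libraries per group the smallest two-sided exact permutation p is 0.1, and single libraries decide values of Tnfaip3, Nfkbia and Rel. Which cause lies behind the lost calls was not tested.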

Other observations

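The balance of the IkappaBalpha gene and the subunit genes was not separated by group. The level of Nfkbia over the sum of the 5 subunit genes, both per kb of the principal transcript, was 1.82, 3.12 and 3.3 in VAS + H2O, 3.74, 2.79 and 2.7 in IMQ + H2O, and 3.39, 3.65 and 1.8 in IMQ + XYF. The sum itself was 80.4, 86.4 and 92.5 CPM per kb in VAS + H2O, 117, 120 and 115 in IMQ + H2O, and 111, 122 and 119 in IMQ + XYF, and every imiquimod library was above every VAS + H2O library.

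Among the pathway genes outside the members, Traf3 had the smallest unadjusted p in IMQ + XYF against IMQ + H2O, and it is given here for that reason only. It measured 26.8 ± 2.22 CPM in IMQ + H2O and 19.6 ± 0.98 CPM in IMQ + XYF (SD, n = 3), with 15.1 ± 2.66 CPM in VAS + H2O. The log2 fold change was -0.44 (95% interval -0.68 to -0.2), and every XYF library was below every IMQ + H2O library. Over all genes, 10.7% had no overlap in either direction. Traf3 did not pass the correction over all genes in edgeR (adjusted p = 0.46). DESeq2 called it (adjusted p = 0.0494), as it did 165 of 17037 genes in all. An extreme picked from many genes is not read as a result.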
